A study of Bos taurus with 18 samples.

Results

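The interleukin 1 (IL-1) family and its inhibitors were followed through 5 genes in milk cells of dairy cows: the cytokine genes IL1A, IL1B and IL18, the receptor antagonist gene IL1RN and the decoy receptor gene IL1R2. Members were taken by symbol, as every probe set whose only gene symbol was one of these 5 names in the array's probe annotation. All 5 were measured, by 7 probe sets in all, among 9155 genes that had a probe set with a single symbol. IL1A and IL1B had 2 probe sets each, and the other 3 genes had 1 each.

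Milk cells were collected from 18 cows (Bos taurus), 1 Affymetrix bovine genome array per cow, with total RNA as the starting material. The groups were 6 cows with mastitis, an inflammation of the udder, 6 cows with endometritis, in which the uterine lining is inflamed, and 6 healthy cows without clinical signs of disease. Cows with mastitis or endometritis were between their lactations 1 and 8 and were sampled 10 to 220 days after calving, with no age or somatic cell count given. Healthy cows had under 100000 somatic cells per ml of milk and were mostly sampled 10 to 100 days after calving, at a labelled age of 2 to 4 years; 1 of them is labelled as in lactation 8, which that age does not allow. No infecting organism, breed or treatment was given for any group, and the part of lactation stage in the differences was not tested.

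From work in humans and mice, IL-1α (IL1A) and IL-1β (IL1B) are known to signal through the receptor IL1R1 together with its partner IL1RAP, and switch on inflammatory genes through MYD88 and NF-κB. The receptor antagonist (IL1RN) occupies IL1R1 without starting a signal, and IL1R2 binds IL-1 but lacks the signalling part, so that each holds the pathway in check. IL-1β and IL-18 are made as inactive precursors that caspase 1 cleaves, so that their mRNA levels do not report the amount of active cytokine.

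All values are log2 normalised intensities, so that a difference of 1 is a doubling. The lower end of the scale lay just under the median of the whole table, 2.55, around which dim probe sets pile up; a gene is called at the floor in a group when it was at or under that median in all its cows. Differences were tested with limma across all 24016 probe sets that were not array controls, with calls made below a Benjamini-Hochberg adjusted p of 0.05.

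In mastitis, the inhibitors IL1RN and IL1R2 and the cytokine IL18 were called higher than in healthy milk cells, and IL1A and IL1B were not called. IL1B was still 5.01-fold and 5.55-fold higher with its 2 probe sets, much like the called IL18 at 5.23-fold. Within cows, IL1RN minus IL1B ran from 2.39 to 4.10 in mastitis and from 0.67 to 4.35 in healthy cows. Whether the inhibitors rose more than IL1B was not tested. Of the 7 member probe sets, 3 were called higher in mastitis than in healthy cows and 0 lower, with a median difference of 2.39 over the 7. Of all 24016 probe sets 19.5% were called in this comparison, with 10.2% called higher and 9.35% lower, and the median difference was 0. Scaling the arrays to their hybridisation controls moved the 2443 higher and 2246 lower calls to 2043 higher and 947 lower, and gave 4 called members. With the 3′ to 5′ GAPDH difference, a measure of RNA degradation, as a covariate there were 856 higher and 572 lower calls and 2 called members, IL1RN and IL1R2. Counted by gene, 3 of 5 members were called higher, against 11.3% of all 9155 genes called higher and 27.1% called in either direction. Without adjustment, p was under 0.05 for 6 of the 7 probe sets, and for 7079 of all 24016.

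Endometritis milk cells gave 0 called members of 7 against healthy cows, and 0 with an unadjusted p under 0.05. The whole table gave 0% called in that comparison. Of all 24016 probe sets 1047 had an unadjusted p under 0.05, fewer than that threshold gives on average where no group differs. Between mastitis and endometritis, 5 of the 7 member probe sets were called higher in mastitis, standing for 4 of the 5 genes, with a median difference of 3.37. For that comparison 14.5% of all probe sets were called, with 7.99% called higher in mastitis and 6.55% lower. Counted by gene, 9.14% of all genes were called higher in mastitis and 20% in either direction.

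**Figure D1:**
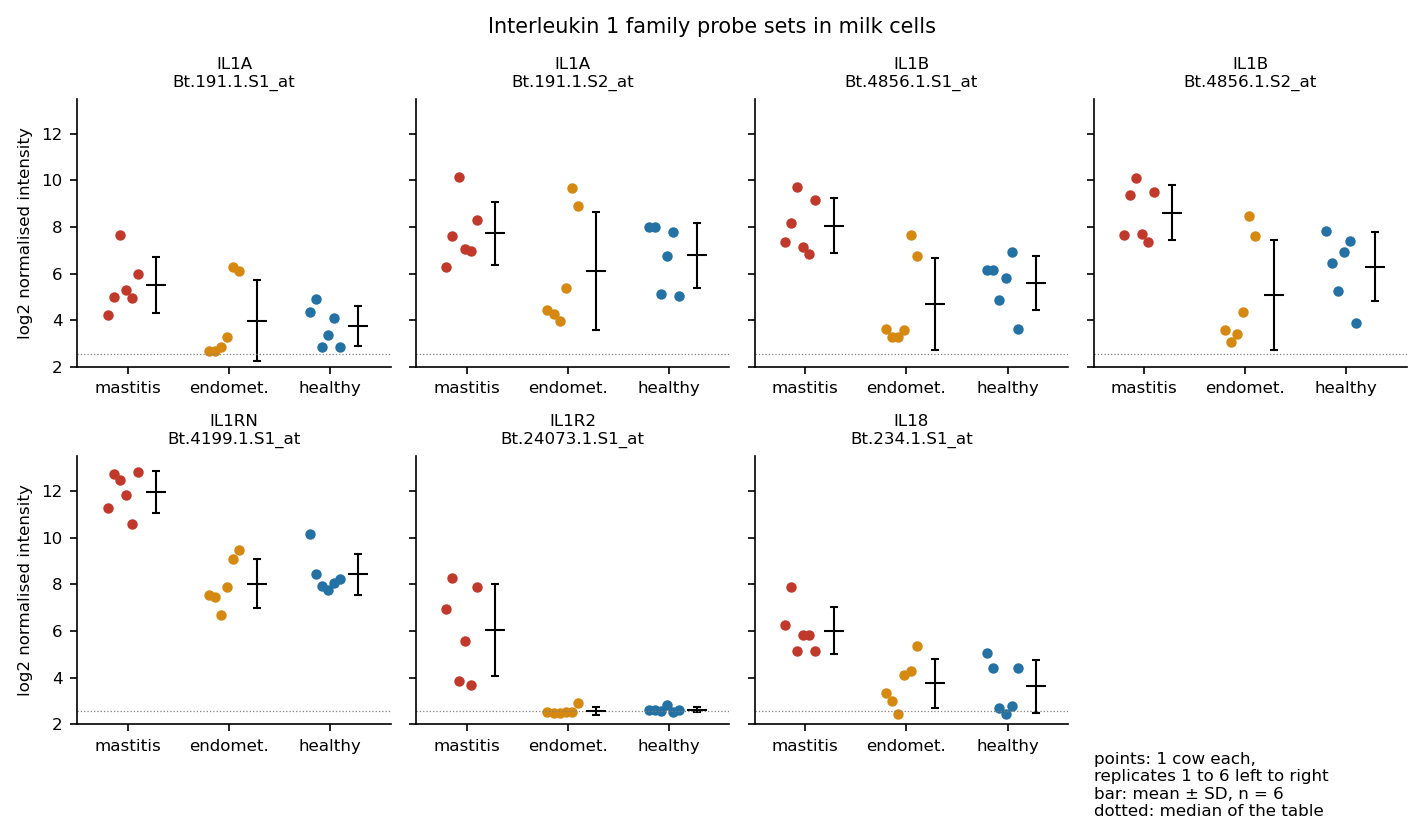
Log2 normalised intensity (vertical axis) of the 7 member probe sets in mastitis, endometritis and healthy cows, with a point per cow, the mean ± SD (n = 6) beside the points and the table median of 2.55 as a dotted line. IL1RN and IL1R2 separated all mastitis cows from the other cows, while IL1A and IL1B overlapped and had 2 high endometritis cows.

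IL1A encodes IL-1α, which acts as a cytokine and also as an alarm signal from damaged cells. With the brighter of its probe sets, S2 by the suffix of its identifier, IL1A ranged from 6.26 to 10.14 with a median of 7.32 in mastitis, from 3.97 to 9.67 with a median of 4.91 in endometritis, and from 5.05 to 8.01 with a median of 7.26 in healthy cows. The ranges of the 3 groups shared the stretch from 6.26 to 8.01. The widest spread was in endometritis, where replicates 5 and 6 stood at 9.67 and 8.90 and the other 4 cows at or below 5.40. IL1A was 0.94 ± 1.04 (SE) higher in mastitis than in healthy cows (95% interval -1.28 to 3.16, adjusted p = 0.593), which did not pass. The endometritis minus healthy difference was -0.68 (interval -2.90 to 1.54, adjusted p = 1), and the mastitis minus endometritis difference was 1.62 ± 1.04 (adjusted p = 0.370).

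The other IL1A probe set, S1, ranged from 4.23 to 7.64 with a median of 5.14 in mastitis, from 2.67 to 6.29 with a median of 3.06 in endometritis, and from 2.85 to 4.92 with a median of 3.73 in healthy cows. Here 5 of 6 mastitis cows lay above the highest healthy cow, and the difference was 1.77 ± 0.74 (interval 0.19 to 3.35), but after adjustment it too did not pass (adjusted p = 0.117). Against endometritis the difference was 1.54 (interval -0.04 to 3.12, adjusted p = 0.207). After removal of group means the paired IL1A probe sets followed each other across the 18 cows with r = 0.973.

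IL1B encodes IL-1β, the main secreted IL-1 of activated macrophages and neutrophils. Its probe set S2 ranged from 7.34 to 10.10 with a median of 8.55 in mastitis, from 3.04 to 8.49 with a median of 3.96 in endometritis, and from 3.86 to 7.82 with a median of 6.70 in healthy cows. Every mastitis cow lay above the mean of either other group, yet 3 of 6 lay below the highest healthy cow. The mean was 8.62 ± 1.18 in mastitis, 5.08 ± 2.35 in endometritis and 6.29 ± 1.48 in healthy cows (SD, n = 6 each). Mastitis exceeded healthy cows by 2.33 ± 0.99 (interval 0.23 to 4.43, adjusted p = 0.122), which did not pass.

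The difference between mastitis and endometritis in IL1B was larger, 3.54 ± 0.99 or 11.6-fold (interval 1.44 to 5.64, adjusted p = 0.0238). Probe set S1 gave 3.37 ± 0.84 or 10.3-fold (adjusted p = 0.0130) for the same comparison. Only 3 of 6 mastitis cows exceeded the highest endometritis cow with either probe set, since endometritis replicates 5 and 6 reached 8.49 and 7.60 with S2 while the other 4 endometritis cows lay between 3.04 and 4.34. Without endometritis replicate 5 the differences widened to 18.6-fold (S2) and 15.5-fold (S1). The call with S2 was lost without mastitis replicate 2 or without endometritis replicate 1, 2 or 3, at adjusted p-values of 0.0507 to 0.0602, and in a fit of the 12 arrays alone (adjusted p = 0.0560); with S1 it held in each of these.

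Against healthy cows, probe set S1 of IL1B stood at the threshold. It ranged from 6.82 to 9.71 with a median of 7.78 in mastitis, from 3.27 to 7.65 with a median of 3.6 in endometritis, and from 3.64 to 6.92 with a median of 5.98 in healthy cows. Its difference of 2.47 ± 0.84, or 5.55-fold, had an adjusted p of 0.0507, with 5 of 6 mastitis cows above the highest healthy cow. The adjusted p fell under the threshold in 5 of 8 other settings, over a range of 0.0211 to 0.163, and without healthy replicate 5, mastitis replicate 5, endometritis replicate 5 or endometritis replicate 6. IL1B in endometritis minus healthy was -1.21 (interval -3.31 to 0.89, adjusted p = 0.925) and -0.90 (interval -2.69 to 0.89, adjusted p = 0.925) with the 2 probe sets.

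IL18 encodes IL-18, a cytokine known for driving interferon gamma production by T cells and natural killer cells. It ranged from 5.14 to 7.88 with a median of 5.83 in mastitis, from 2.43 to 5.37 with a median of 3.72 in endometritis, and from 2.43 to 5.06 with a median of 3.58 in healthy cows. No healthy cow reached the lowest mastitis cow, and 4 of 6 mastitis cows lay above the highest endometritis cow. The mean was 6.01 ± 1.01 in mastitis, 3.75 ± 1.05 in endometritis and 3.62 ± 1.12 in healthy cows (SD, n = 6 each).

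IL18 was 2.39 ± 0.60, or 5.23-fold, higher in mastitis than in healthy cows (interval 1.11 to 3.67, adjusted p = 0.0103) and 2.26 ± 0.60, or 4.78-fold, higher than in endometritis (adjusted p = 0.0184). Endometritis and healthy cows differed by 0.13 (interval -1.15 to 1.41, adjusted p = 1). The log2 difference of 3′ minus 5′ GAPDH control probe sets was 0.39 ± 0.23 in mastitis, 0.58 ± 0.25 in endometritis and 0.88 ± 0.40 in healthy cows (SD, n = 6 each). With this measure as a covariate, the IL18 difference against healthy cows was 1.29 and was not called (adjusted p = 0.261), and with array weights the difference against endometritis was 1.52 and was not called (adjusted p = 0.10).

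IL1RN, the gene of the receptor antagonist, separated the mastitis cows from all others. Its values were 11.28, 12.73, 12.50, 11.83, 10.58 and 12.84 in mastitis replicates 1 to 6, against 7.55, 7.48, 6.70, 7.88, 9.07 and 9.46 in endometritis replicates 1 to 6 and 10.18, 8.43, 7.93, 7.76, 8.07 and 8.21 in healthy replicates 1 to 6. The lowest mastitis cow, at 10.58, was above the highest healthy cow, at 10.18, and that healthy cow stood well apart from the other 5. The mean was 11.96 ± 0.90 in mastitis, 8.02 ± 1.05 in endometritis and 8.43 ± 0.89 in healthy cows (SD, n = 6 each).

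The mastitis minus healthy difference in IL1RN was 3.53 ± 0.54, or 11.5-fold (interval 2.38 to 4.67, adjusted p = 0.000360). Mastitis exceeded endometritis by 3.94 ± 0.54, or 15.3-fold (interval 2.79 to 5.08, adjusted p = 0.000230). Endometritis and healthy cows overlapped, with a difference of -0.41 (interval -1.55 to 0.73, adjusted p = 0.978). Both mastitis calls held in all 8 other settings and with each of the 18 arrays left out in turn, at adjusted p-values up to 0.0120.

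IL1R2, the decoy receptor, was close to the bottom of the scale outside mastitis. Its values were 6.96, 8.26, 3.83, 5.56, 3.70 and 7.87 in mastitis replicates 1 to 6, against 2.54, 2.47, 2.49, 2.52, 2.5 and 2.92 in endometritis replicates 1 to 6 and 2.61, 2.61, 2.58, 2.81, 2.52 and 2.61 in healthy replicates 1 to 6. In 5 of 6 endometritis cows and 5 of 6 healthy cows it lay within 0.1 of the table median. Every mastitis cow was above every other cow, but the mastitis cows themselves spread over 4.56 log2 units, the widest range of any member probe set in that group.

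The mean of IL1R2 was 6.03 ± 1.98 in mastitis, 2.57 ± 0.17 in endometritis and 2.62 ± 0.10 in healthy cows (SD, n = 6 each). Mastitis exceeded healthy cows by 3.41 ± 0.65 (interval 2.02 to 4.79, adjusted p = 0.00175) and endometritis by 3.46 ± 0.65 (interval 2.07 to 4.84, adjusted p = 0.00234) in the fit. Because the endometritis and healthy cows lie at or close to the floor, the fold is a lower bound. With values under the table median raised to it, IL1R2 was at least 10.6-fold higher in mastitis than in healthy cows and at least 10.7-fold higher than in endometritis. Endometritis and healthy cows differed by -0.05 (interval -1.43 to 1.34, adjusted p = 1). Both mastitis calls held in all 8 other settings and with each array left out, at adjusted p-values up to 0.0295.

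**Figure D2:**
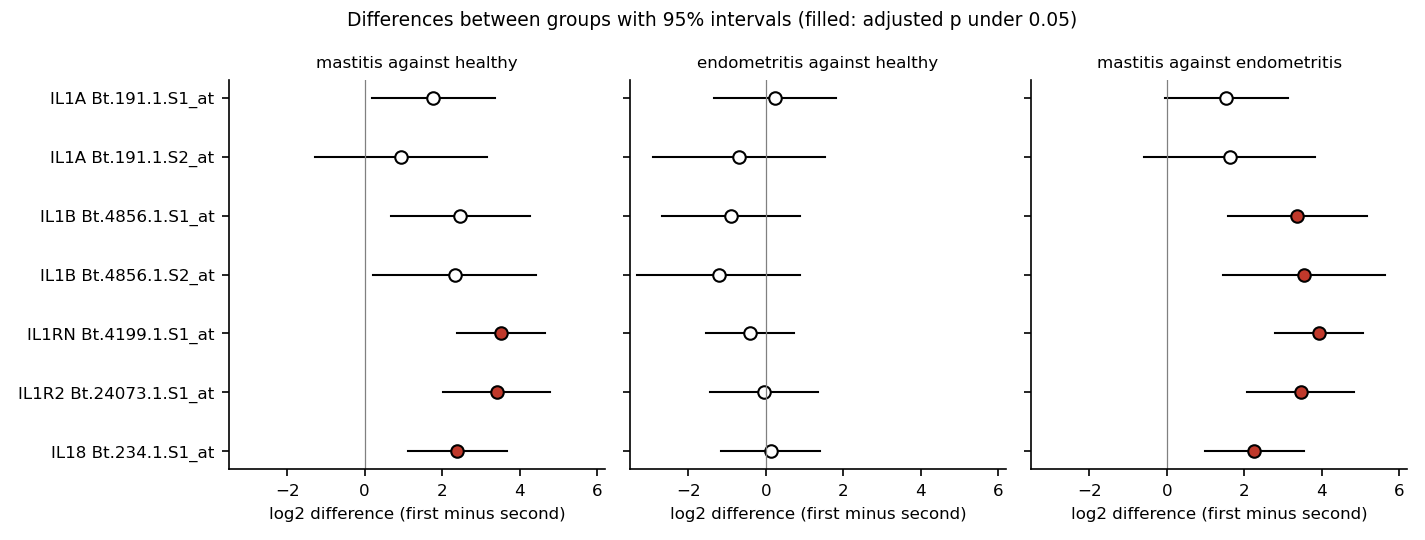
Log2 differences (horizontal axis) with 95% intervals for the 7 member probe sets in the 3 comparisons; filled points passed an adjusted p of 0.05. Against healthy cows 3 mastitis differences are filled, 0 are filled for endometritis, and 5 are filled for mastitis against endometritis.

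Ordered by mean, IL1RN, IL1R2, both IL1B probe sets and probe set S2 of IL1A ran mastitis, healthy, endometritis, and in none of them did endometritis and healthy cows differ beyond their spread. IL18 and probe set S1 of IL1A ran mastitis, endometritis, healthy, with the last 2 groups overlapping; for IL1A the mastitis cows overlapped both other groups too. Every mastitis cow exceeded every healthy cow for 3 of 7 member probe sets, a pattern seen in 6.22% of all probe sets, and every endometritis cow for 2 of 7, against 4.43%. Every endometritis cow exceeded every healthy cow for 0 of 7, against 0.0999%.

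Milk cells are a mixture, and in these bulk samples fewer cells of a type and less RNA per cell cannot be told apart. Neutrophil markers were mostly higher in mastitis: of 16 listed genes 11 were measured and 10 were called higher than in healthy cows. The mean of the 11 per cow ran from 8.09 to 9.45 in mastitis, from 4.04 to 6.68 in endometritis and from 4.49 to 6.34 in healthy cows. Of 15 macrophage markers 11 were measured and 0 were called, with means per cow of 5.20 to 8.06 in mastitis, 4.35 to 8.62 in endometritis and 4.22 to 7.59 in healthy cows; CD163 and MRC1 were not among those measured. Mammary secretory genes, such as caseins, were all 14 measured and 13 were called lower in mastitis, with means per cow of 6.24 to 9.07 in mastitis, 9.94 to 12.66 in endometritis and 11.18 to 12.53 in healthy cows. Among 12 epithelial genes 8 were called lower (4 with the GAPDH covariate), and KRT8 was at the floor in every group. T cell genes gave 0 calls of 10 measured, and B cell genes 1 of 5. The array's dap control probe sets moved with the groups too, averaging 5.54 to 6.66 per array in mastitis, 5.89 to 7.88 in endometritis and 6.79 to 9.03 in healthy cows, so that mastitis and healthy arrays did not overlap. The part of cell composition and of the dap signal in the member differences was not tested.

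Within the groups, IL1A and IL1B varied together from cow to cow. After group means were subtracted, their brighter probe sets correlated over the 18 cows with r = 0.948 (permutation p within groups 1e-05, the smallest that 100000 permutations can give; adjusted p over 25 relations 0.000125) and rho = 0.959 (permutation p = 1e-05, adjusted 0.000250). The correlation was 0.869 among mastitis cows, 0.996 among endometritis cows and 0.882 among healthy cows, and 0.906 over all groups without endometritis replicates 5 and 6, the cows farthest from the middle. Mastitis replicate 3 was the highest mastitis cow for both genes.

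IL1RN also varied with the IL-1 cytokines, with r = 0.766 to IL1B (permutation p = 0.00064, adjusted 0.00533) and rho = 0.759 (permutation p = 0.00091, adjusted 0.00569). To IL1A it had r = 0.740 (permutation p = 0.0009, adjusted 0.00562) and rho = 0.759 (permutation p = 0.00051, adjusted 0.00425). Without endometritis replicates 5 and 6 these were 0.683 and 0.640. The IL1RN to IL1B correlation was 0.890 among mastitis cows, 0.921 among endometritis cows and 0.441 among healthy cows. The difference between these correlations was not tested.

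For IL1R2 no such relation was detected. Its correlation to IL1B was r = 0.123 (permutation p = 0.513, adjusted 0.558) and rho = 0.237 (permutation p = 0.274, adjusted 0.327), and to IL1A r = -0.083 (permutation p = 0.756, adjusted 0.756) and rho = 0.155 (permutation p = 0.474, adjusted 0.493). Without endometritis replicates 5 and 6 r was 0.134 and -0.147. Mastitis replicate 3, highest for IL1A and IL1B, was second lowest for IL1R2 at 3.83, and mastitis replicate 2, at 8.26, was highest for IL1R2 and IL18. The endometritis and healthy cows, with SDs of 0.17 and 0.10, add almost no spread of IL1R2 to these correlations.

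IL18 tracked the mean of the 11 neutrophil genes within groups, with r = 0.812 (permutation p = 1e-05, the smallest possible, adjusted 0.000125) and rho = 0.798 (permutation p = 0.00013, adjusted 0.00162), and with r = 0.776 without endometritis replicate 6 and mastitis replicate 2. By group this r was 0.603 among mastitis cows, 0.942 among endometritis cows and 0.866 among healthy cows. The IL1RN correlation with the same mean was 0.741 (permutation p = 0.00225, adjusted 0.0112), with rho = 0.705 (permutation p = 0.00376, adjusted 0.0188), and 0.527 without endometritis replicate 6 and healthy replicate 1. For IL1RN it was weaker among mastitis cows, at 0.335, than among endometritis cows, at 0.830, or healthy cows, at 0.972. Differences between groups in these correlations were not tested. IL1R2 gave 0.369 (permutation p = 0.049, adjusted 0.136), with rho = 0.542 (permutation p = 0.0259, adjusted 0.0926), and 0.202 without mastitis replicates 2 and 5. Among mastitis cows alone, which hold nearly all the spread of IL1R2, this r was 0.738. It was 0.923 among endometritis cows and -0.211 among healthy cows, where IL1R2 lay close to the floor. IL1B gave 0.498 (permutation p = 0.0813, adjusted 0.156), with rho = 0.527 (permutation p = 0.0411, adjusted 0.114), and 0.405 without endometritis replicates 5 and 6. IL1A and the neutrophil mean gave 0.469 (permutation p = 0.105, adjusted 0.180), with rho = 0.507 (permutation p = 0.0526, adjusted 0.120), and 0.337 without endometritis replicates 5 and 6. IL1RN and IL18 correlated with r = 0.626 (permutation p = 0.00837, adjusted 0.0349), but rho, 0.595, did not pass (permutation p = 0.0136, adjusted 0.0566), and r was 0.422 without endometritis replicate 6 and healthy replicate 1. Between these 2 genes r was 0.078 among mastitis cows, 0.944 among endometritis cows and 0.786 among healthy cows.

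Against the mean of the 11 macrophage genes, IL1A gave r = 0.623 (permutation p = 0.012, adjusted 0.0430), while rho, 0.498, did not pass (permutation p = 0.05, adjusted 0.120), and r was 0.466 without endometritis replicates 5 and 6. Among endometritis cows alone this r was 0.932, and the endometritis replicates 5 and 6 that were high for IL1A and IL1B had the highest macrophage means of their group, 8.62 and 7.55. None of the other 4 members passed against the macrophage mean (adjusted p 0.147 to 0.180), and none of the 5 against the mean of the secretory genes (adjusted p 0.124 to 0.563). The high r among endometritis cows was not particular to IL1A: it was 0.934 for IL1RN, 0.911 for IL1B, 0.823 for IL18 and 0.382 for IL1R2. Among mastitis cows r to the macrophage mean was 0.447 for IL1A, 0.046 for IL1B, -0.379 for IL1RN, -0.598 for IL18 and -0.832 for IL1R2. In healthy cows these were 0.251, -0.065, 0.690, 0.946 and -0.163.

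**Figure D3:**
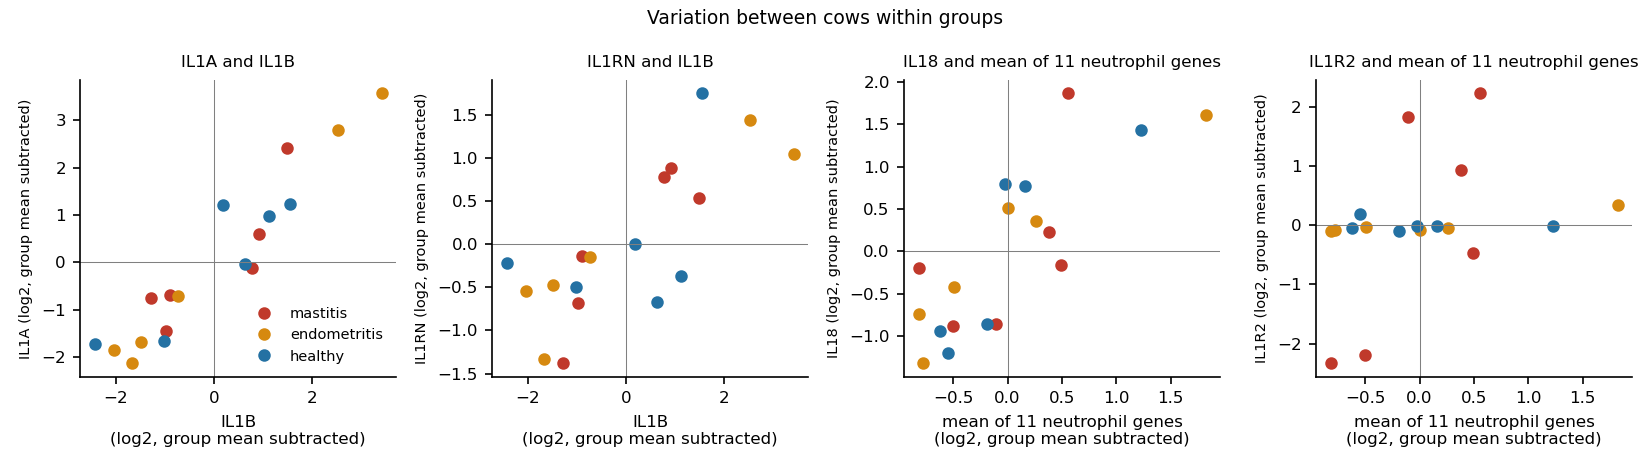
Cow-to-cow variation after subtraction of group means, in log2 units on both axes, with a point for each of 18 cows. IL1A against IL1B (r = 0.948) and IL18 against the mean of 11 neutrophil genes (r = 0.812) follow a line; IL1RN against IL1B (r = 0.766) is looser, and IL1R2 against the neutrophil mean (r = 0.369) has most endometritis and healthy cows near 0.

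The genes whose cow-to-cow pattern was most like each member, by r over the 18 cows after subtraction of group means among 6548 candidate genes, are given as a description. For IL1A they were IL1B at 0.948, the chemokine CCL8 at 0.895 and CKM, muscle creatine kinase, at 0.881. IL1B was followed by IL1A, by PLAU, the urokinase plasminogen activator, at 0.848 and by the neutrophil chemokine CXCL8 at 0.826. For IL1RN they were NINJ1, a membrane protein known in mice for rupturing dying cells, at 0.906, PLAUR, the receptor of urokinase, at 0.886 and IER3 at 0.884. IL18 was closest to CD164 at 0.917, TMEM33 at 0.913 and IL1RAP at 0.911. IL1R2 was closest to SMUG1 at 0.937, VAT1L at 0.919 and ZNF263 at 0.906, but the rank correlations for SMUG1 and ZNF263 were only 0.630 and 0.527. VAT1L, with a rank correlation of 0.904, averaged 2.57 over the 18 cows, close to the table median of 2.55.

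Among the other IL-1 pathway genes, the receptor partner IL1RAP stood out in mastitis. Of 6 listed receptors 3 were measured, 1 was called higher and 0 lower. For this and the pathway lists below, 11.3% of all 9155 genes were called higher in mastitis than in healthy cows. IL1RAP ranged from 8.78 to 11.01 in mastitis, from 4.55 to 7.25 in endometritis and from 4.28 to 7.56 in healthy cows, with every mastitis cow above every other. It was 4.19 ± 0.61, or 18.2-fold, higher in mastitis than in healthy cows (adjusted p = 0.000271) and 4.26 ± 0.61 higher than in endometritis (adjusted p = 0.000328). A second IL1RAP probe set, at the floor in healthy cows, was at least 3.27-fold higher (adjusted p = 0.00444), and the last of its 3 did not pass (adjusted p = 0.477). That last probe set was at the floor in endometritis and healthy cows and at or under the table median in 5 of 6 mastitis cows. At that level it says little about whether IL1RAP differed. The signalling receptor IL1R1 averaged 3.77 ± 1.11 in mastitis and 4.04 ± 0.69 in healthy cows (SD, n = 6 each), a difference of -0.27 ± 0.49 (adjusted p = 0.783), and IL18R1, a chain of the IL-18 receptor, was at the floor on all 18 arrays.

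Of 5 further brakes of the family 2 were measured, and 0 passed against healthy cows. SIGIRR, an inhibitory receptor, differed by -0.19 (adjusted p = 0.575), and TOLLIP, an adaptor that dampens the receptor complex, by 0.34 (adjusted p = 0.130). TOLLIP was called against endometritis, by 0.53 (adjusted p = 0.0239), but not in 5 of 8 other settings nor without mastitis replicate 1 or 4 or endometritis replicate 1, 2 or 3. The only other ligand measured of 6 listed, IL33, was at the floor in all mastitis cows and differed from healthy cows by -0.14 (adjusted p = 0.786).

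Genes that process the cytokines were measured for 4 of 10 listed, with 2 called higher in mastitis than in healthy cows, 0 lower and a median difference of 2.09. CASP1, the convertase of IL-1β and IL-18, averaged 6.05 ± 0.60 in mastitis, 3.67 ± 0.82 in endometritis and 3.81 ± 0.73 in healthy cows (SD, n = 6 each) and was 2.24 ± 0.41 higher than in healthy cows (adjusted p = 0.00128), with no overlap. CASP4, an inflammatory caspase that senses lipopolysaccharide in humans, was 3.27 ± 0.44 higher (adjusted p = 0.000164). PYCARD, the inflammasome adaptor, differed by 1.95 (adjusted p = 0.0834), and GSDMD, the pore through which mature IL-1β leaves cells, by 0.01 (adjusted p = 1). GSDMD averaged 2.72 in mastitis and 2.70 in healthy cows, close to the table median of 2.55. At that level its probe set says little about whether GSDMD differed. The sensor NLRP3 was not among the genes measured here.

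Of 12 signalling genes below the receptor 10 were measured, 4 were called higher in mastitis than in healthy cows and 0 lower, with a median difference of 0.44. The kinase IKBKB was 2.93 ± 0.29 higher (adjusted p = 1.9e-05) and the adaptor MYD88 2.51 ± 0.38 higher (adjusted p = 0.000345). The ubiquitin ligase TRAF6 was 0.76 ± 0.20 higher (adjusted p = 0.0113), a call lost with the GAPDH covariate (adjusted p = 0.206). TAB2, which links TRAF6 to the kinase TAK1, was 0.87 ± 0.27 higher (adjusted p = 0.0306), a call lost in 5 of 8 other settings and without healthy replicate 1 or 3 or mastitis replicate 1 or 2. Its second probe set was 1.65 ± 0.20 higher (adjusted p = 6.3e-05), with every mastitis cow above every healthy cow, and kept its call in each of these settings. With the GAPDH covariate 2 of the 10 signalling genes were called in place of 4.

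Inflammatory genes that IL-1 is known to induce were measured for 13 of 14 listed, of which 7 were called higher in mastitis than in healthy cows and 0 lower, with a median difference of 1.95. With the GAPDH covariate 2 of the 13 were called in place of 7; the other settings gave 5 to 9, and leaving out an array 5 to 8. PTX3, a soluble pattern recognition protein, was 5.37 ± 0.84 higher (adjusted p = 0.000454), and ICAM1, an adhesion molecule for leukocytes, 3.68 ± 0.65 higher (adjusted p = 0.00103). CXCL8 was 1.80 ± 0.45 higher (adjusted p = 0.00918) and PTGS2, the inducible cyclooxygenase, 2.46 ± 0.68 higher (adjusted p = 0.0176). With the GAPDH covariate CXCL8 (adjusted p = 0.154) and PTGS2 (adjusted p = 0.148) were not called, and PTGS2 was not called with array weights either. A second PTGS2 probe set, at the floor in healthy cows, was at least 8.75-fold higher (adjusted p = 0.00015) with no overlap and kept its call in every setting, and the last of its 3 did not pass (adjusted p = 0.834). The other 3 each lost their call in some settings and are named for this reason, after their values were seen. CXCL2 lost it in 4 of 8 settings and in 12 of 18 repeats with an array left out, SAA3 in 3 and 7 of these, and CCL20 in 2 and 0. In the same comparison most neutrophil markers given above were higher and most secretory markers lower, and their part was not tested.

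**Figure D4:**
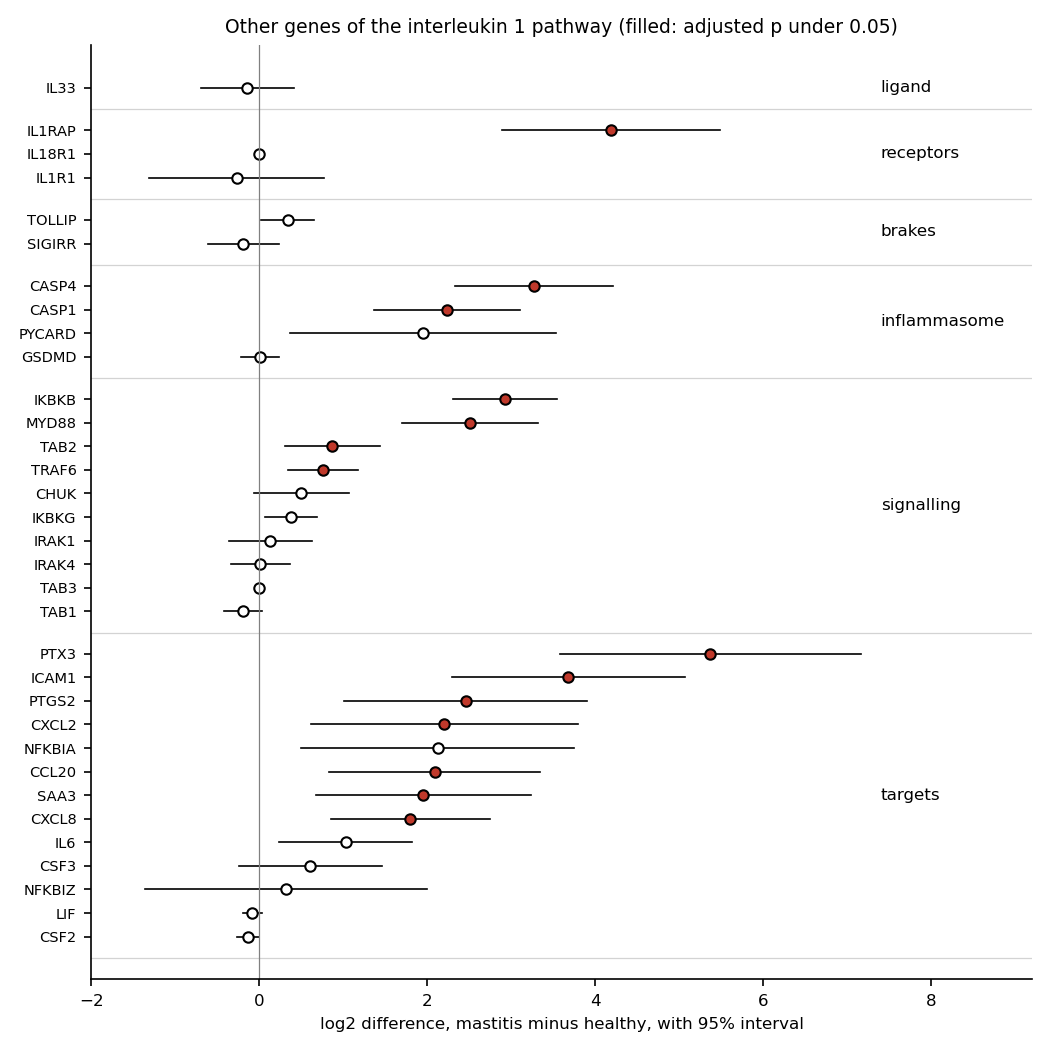
Log2 difference of mastitis minus healthy (horizontal axis) with 95% intervals for the other pathway genes measured, grouped by role, with filled points for an adjusted p under 0.05. IL1RAP at 4.19 and PTX3 at 5.37 lie farthest to the right in the receptors and the targets, while IL1R1 at -0.27 and SIGIRR at -0.19 lie left of 0 with open points.

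In endometritis against healthy cows, 0 genes of any of these lists were called. Between mastitis and endometritis the calls were 1 of 3 receptors, 1 of 2 brakes, 2 of 4 processing genes, 4 of 10 signalling genes and 8 of 13 induced genes, all higher in mastitis. Of all genes 9.14% were called higher in mastitis in that comparison. Each group enters 2 of the 3 comparisons, so the 3 sets of differences are not independent of each other.

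On the ARS-UCD2.0 cattle annotation of RefSeq, used here only for names and gene order, all 5 members matched by gene identifier. IL1A and IL1B have 1 gene between them, and IL1RN lies on the same chromosome with 8 genes between it and IL1B, among them IL37, IL36G, IL36A, IL36B, IL36RN and IL1F10. IL1R2 is on that chromosome too, 432 genes from IL1A, and IL18 is on another.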

How the data were processed

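The series matrix holds 1 column per cow for 24128 probe sets. Its values are normalised probe set intensities deposited by the authors; per the submitters' processing notes RMA, GCRMA and limma were used, with no version or order given. Whether RMA or GCRMA gave these intensities, and how background was treated, is not given in the sources used here. A log2 scale of the deposited values was inferred from their range, 2.43 to 14.2 with a median of 2.55, and not stated. Total RNA was amplified with a 3′ IVT kit, and only RNA above an integrity threshold was used, per the labels' protocols. No scanner files were used here, so no probe set has a detection call; "at the floor" means at or under the table median on every array of a group.

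After removal of 112 control probe sets, limma 3.58.1 in R 4.3.3 was fitted to all 18 arrays (lmFit and eBayes, 15 residual degrees of freedom, two-sided, Benjamini-Hochberg over 24016 probe sets), with no covariate or filter. All 7 member probe sets were above the table median on at least 6 arrays. Of the tested probe sets 13292 carried 1 symbol, 86 several and 10638 none; only the first kind is named. Where 1 value per gene was needed, the probe set of highest mean over all arrays was used. A bound ("at least") sets the mean of the higher group against the table median. For IL1R2 it sets that mean against the mean of the other group, with values under the table median raised to it. Named genes were the members, up to 4 genes per pathway list with the smallest p in mastitis against healthy, IL1R1, IL1RAP, CASP1 and NLRP3, and the 3 genes most like each member. The members and all lists were chosen with earlier results of these data known. Relations between cows used 100000 permutations within groups, two-sided, adjusted over 25 relations. The fit was tested on simulated data.

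Series text calls the samples biological replicates. With 6 arrays in each group, that number sets the precision. Correlations between arrays ran from 0.711 to 0.984, and 0 pairs were identical. Alternatives were a fit of 12 arrays, a filter on dim probe sets, quantile normalisation, scaling to hybridisation controls, array weights, a trended robust prior, the GAPDH covariate, a block for the number in the sample titles (up to 120 or above), and leaving out each array.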

Additional observations from a re-analysis of the deposited data

Results flagged for a closer look

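In 3 of 21 groups of 6 cows a member value stood apart from the other 5 by Dixon's test, which chance alone gives in about 1 of 20 groups. IL1RN in healthy replicate 1 was 10.18, against 8.43 for the next healthy cow and 7.76 for the lowest. IL1R2 in endometritis replicate 6 was 2.92, against 2.54 for the next endometritis cow and 2.47 for the lowest. IL1R2 in healthy replicate 4 was 2.81, against 2.61 for the next healthy cow and 2.52 for the lowest. The table median, near which both IL1R2 values lie, was 2.55.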

How the results depend on the processing

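Over 8 other settings and 18 repeats with an array left out, 520 of 546 member differences kept their direction and their side of the threshold, 7 lost a call, 9 gained it and 10 changed sign. All 10 were in endometritis against healthy cows, where no difference was called: IL1R2, -0.05 as reported, was 0.15 after scaling to hybridisation controls and 0.00997 with array weights; IL18, 0.13 as reported, was -0.54 with the GAPDH covariate and -0.21 with the block for title numbers, and between -0.19 and 0.42 with an array left out (below 0 without healthy replicate 3, 4 or 5 or endometritis replicate 6); IL1A with probe set S1, 0.23 as reported, was between -0.23 and 0.50 (below 0 without endometritis replicate 5 or 6). The cause was not tested. Called members numbered 2 (GAPDH covariate) to 4 of 7 for mastitis against healthy, 0 for endometritis against healthy and 4 to 5 for mastitis against endometritis.

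Counts over the whole table moved more. Against healthy cows, 2443 probe sets higher in mastitis became 856 with the GAPDH covariate, and 2246 lower became 572 with it and 947 after scaling to hybridisation controls (2043 higher); with an array left out they were 1994 to 2519 and 1768 to 2405. Against endometritis, scaling gave 1257 higher and 812 lower, in place of 1919 and 1574, and leaving out an array 1515 to 2095 and 1100 to 1740. That scaling moved the median of all differences to 0.25, 0.20 and 0.05 (mastitis against healthy, endometritis against healthy, mastitis against endometritis). Probe sets lower in endometritis than in healthy cows numbered 0 as reported, and 1 with the filter on dim probe sets, after scaling, with array weights and with the trended robust prior, and 0 to 1 with an array left out. No paired analysis was possible because no label links cows across groups. Values near the floor limit what can be said of IL1R2 outside mastitis.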
